A study of Mus musculus with 5 samples.

Results

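Potassium channel genes are treated here as the autosomal protein-coding genes of the mouse GRCm38 annotation whose symbol starts with Kcn. The rule gave 92 genes among 20807 autosomal protein-coding genes. It uses symbols and no measured value, but it was set with earlier results of these data known. The study asked how H3K27me3 (trimethylation of lysine 27 on histone H3) differs between early and late embryonic dermal fibroblasts, the connective tissue cells of the skin. The data are 4 lists of broad H3K27me3 ChIP-seq peaks, 2 from E14 and 2 from E17, each from wild-type (WT) dermal fibroblasts. The labels name the stages E14 and E17, where the paper names E14.5 and E18.5. The groups share the genotype, the antibody and an expansion of the cells in culture, so the peaks describe cultured dermal preparations. The labels do not say that the libraries of a stage came from separate animals, so the p-values measure the spread between these libraries only. An input library is labelled too and was not analysed here.

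Potassium channels are membrane pores that let potassium leave the cell, and they set the resting potential and end action potentials. The pore-forming proteins fall into voltage-gated channels (Kcna, Kcnb, Kcnc, Kcnd, Kcnh and Kcnq), inward rectifiers (Kcnj), two-pore leak channels (Kcnk) and calcium-activated channels with their relatives (Kcnma1, Kcnn, Kcnt and Kcnu). Silent subunits (Kcnf, Kcng, Kcns and Kcnv) conduct only when assembled with a voltage-gated partner, and accessory proteins (Kcnab, Kcne, Kcnip, Kcnmb) tune channels made by other genes. Most of these genes are best known from neurons, heart, muscle and secretory epithelia. H3K27me3 is laid down by Polycomb complexes, is a mark of silent genes, and is typically found at CpG-rich start sites of genes that belong to other lineages.

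The sequences upstream of a few start sites show the contrast in base composition that recurs below. Each is 250 bases long, ends at the base before an annotated start site, and is written in the direction of transcription with every CG pair in capitals. Kcnc1 encodes a voltage-gated channel of fast-firing neurons. Its first start site lay inside a peak in all 4 libraries (chr7:46396247-46396496 upstream, plus strand, 31 CpG), and a start site deeper in the gene had no peak within 3 kb in any library (chr7:46422430-46422679, plus strand, 0 CpG).
Kcnc1, marked start: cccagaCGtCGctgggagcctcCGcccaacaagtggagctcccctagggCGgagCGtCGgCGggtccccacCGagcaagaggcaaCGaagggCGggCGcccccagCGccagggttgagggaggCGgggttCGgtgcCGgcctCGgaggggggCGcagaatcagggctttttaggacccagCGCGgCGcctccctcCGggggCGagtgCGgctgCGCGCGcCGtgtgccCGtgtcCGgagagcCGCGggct
Kcnc1, unmarked start: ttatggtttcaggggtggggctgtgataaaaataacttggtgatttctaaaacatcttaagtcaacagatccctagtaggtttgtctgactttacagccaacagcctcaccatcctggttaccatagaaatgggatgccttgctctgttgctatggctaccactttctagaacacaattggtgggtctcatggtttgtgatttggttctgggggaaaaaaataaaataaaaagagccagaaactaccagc
Kcnma1 encodes the large-conductance calcium-activated channel. A start site of this gene lay inside a peak in all 4 libraries (chr14:24004860-24005109, minus strand, 23 CpG), whereas the most upstream annotated start had no peak (chr14:24014492-24014741, minus strand, 2 CpG).
Kcnma1, marked start: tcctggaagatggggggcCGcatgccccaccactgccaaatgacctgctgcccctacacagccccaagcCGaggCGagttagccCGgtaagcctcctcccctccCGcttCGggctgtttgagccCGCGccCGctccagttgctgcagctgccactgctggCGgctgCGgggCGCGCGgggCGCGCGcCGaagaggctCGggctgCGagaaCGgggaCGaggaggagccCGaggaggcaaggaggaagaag
Kcnma1, unmarked start: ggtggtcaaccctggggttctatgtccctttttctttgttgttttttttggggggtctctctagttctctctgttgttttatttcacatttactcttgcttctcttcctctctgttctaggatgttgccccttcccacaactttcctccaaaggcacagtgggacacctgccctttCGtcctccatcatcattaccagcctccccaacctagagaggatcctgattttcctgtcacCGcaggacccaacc
Kcnh8 encodes a voltage-gated channel of the ether-a-go-go family. The same contrast held between its first start site (chr17:52602459-52602708, plus strand, 20 CpG) and an internal one (chr17:52949810-52950059, plus strand, 1 CpG).
Kcnh8, marked start: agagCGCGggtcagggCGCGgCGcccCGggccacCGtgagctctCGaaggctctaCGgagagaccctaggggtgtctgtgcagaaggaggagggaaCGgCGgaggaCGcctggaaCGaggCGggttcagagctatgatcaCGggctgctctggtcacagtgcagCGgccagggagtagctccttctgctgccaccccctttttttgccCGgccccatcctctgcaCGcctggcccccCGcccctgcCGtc
Kcnh8, unmarked start: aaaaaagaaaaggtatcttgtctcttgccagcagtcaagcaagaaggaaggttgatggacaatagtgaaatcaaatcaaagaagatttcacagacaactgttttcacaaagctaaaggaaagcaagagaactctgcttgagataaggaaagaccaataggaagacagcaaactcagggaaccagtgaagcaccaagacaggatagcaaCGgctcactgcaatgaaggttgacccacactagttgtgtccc
Kcns3, a silent subunit, is shown because its upstream stretch (chr12:11151057-11151306, minus strand, 11 CpG) was covered whole in both E14 libraries and not at all in either E17 library.
Kcns3, covered at E14 only: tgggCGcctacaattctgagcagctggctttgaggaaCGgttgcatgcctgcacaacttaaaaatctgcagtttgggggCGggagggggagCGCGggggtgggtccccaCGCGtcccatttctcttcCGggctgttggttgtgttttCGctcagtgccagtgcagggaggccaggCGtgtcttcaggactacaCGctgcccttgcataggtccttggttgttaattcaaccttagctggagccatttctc
Kcnn4, the intermediate-conductance calcium-activated channel (chr7:24370013-24370262, plus strand, 6 CpG), and Kcnmb1, an accessory subunit of the Kcnma1 channel in smooth muscle (chr11:33962763-33963012, plus strand, 1 CpG), had no peak in any library.
Kcnn4, no peak: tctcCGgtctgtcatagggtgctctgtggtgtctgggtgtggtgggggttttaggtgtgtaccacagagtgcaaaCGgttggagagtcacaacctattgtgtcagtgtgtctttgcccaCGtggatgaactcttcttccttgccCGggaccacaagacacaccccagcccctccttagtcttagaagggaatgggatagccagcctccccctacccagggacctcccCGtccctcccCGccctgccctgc
Kcnmb1, no peak: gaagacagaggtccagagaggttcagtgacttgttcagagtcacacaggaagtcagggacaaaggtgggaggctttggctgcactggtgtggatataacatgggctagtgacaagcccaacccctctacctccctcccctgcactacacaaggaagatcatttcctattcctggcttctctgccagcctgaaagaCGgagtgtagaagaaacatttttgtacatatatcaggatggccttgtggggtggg

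A gene was counted as marked in a library when a peak lay within 3000 bp of any of its start sites, and its covered length was the number of bases of those windows inside peaks. The covered length is capped by the window, which is 6001 bp for a gene with a single start site and longer for a gene with several. The percentile of a gene is the rank of its highest fold enrichment (the ratio of the pileup to the local background) among all peaks of the same list. The lists held 21546 and 16574 peaks at E14 and 10429 and 7107 at E17, and they give no read counts from which the depth of a library could be read. None of the 10 dermal fibroblast markers examined (Col1a1, Col1a2, Col3a1, Pdgfra, Twist2, Dcn, Lum, Dpt, Vim and Fbn1) had a peak in any library. Among markers of other cells, a peak in all 4 libraries lay at 3 of 3 neuronal, 2 of 3 skeletal muscle, 2 of 4 melanocyte and Schwann cell, 1 of 5 keratinocyte, 1 of 4 endothelial and 0 of 3 immune genes.

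Most potassium channel genes carried the mark at both stages. Of the 92 genes, 62 (67.4%) had a peak in all 4 libraries, against 12.6% of all autosomal protein-coding genes. With peaks limited to a −log10 q-value of at least 5 the count was 20 genes. The share of all genes at that limit was not computed, so this count cannot be set against the 12.6%. Another 2 genes, Kcnh6 and Kcnip2, had a peak in both E14 libraries and in E17 replicate 1 (2.17%, against 2.48% of all genes). The 4 genes Kcna4, Kcnab2, Kcne1 and Kcns3 had a peak in both E14 libraries and in neither E17 library (4.35%, against 4.72% of all genes). For 8 genes (8.70%, against 5.63% of all genes) just 1 list held a peak, namely Kcnab3, Kcne2, Kcnj1, Kcnj11, Kcnj15 and Kcnk2 in E14 replicate 1, Kcnk5 in E14 replicate 2 and Kcnv2 in E17 replicate 1. The remaining 16 genes (17.4%) had no peak in any library, against 73.4% of all genes. No potassium channel gene was marked in both E17 libraries and in neither E14 library, a pattern found in 0.0961% of all genes.

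Between the stages, the set of marked genes differed less than the length of the mark on them. The number of marked genes was 74 and 69 in the E14 libraries and 65 and 62 in the E17 libraries. The mean was 71.5 ± 3.54 (SD, n = 2) at E14 and 63.5 ± 2.12 (SD, n = 2) at E17, which is 11.2% lower. The stages did not overlap, and the exact permutation test, two-sided, gave p = 0.333, the smallest value that 2 libraries against 2 allow. When each list was limited to the 7107 peaks of lowest q-value, the length of the shortest list, the difference in number was -0.5 genes. Over all autosomal protein-coding genes the libraries had 5267, 4385, 3292 and 2780 marked genes in the same order, a mean 37.1% lower at E17 (exact permutation p = 0.333). In such bulk material, fewer cells carrying the mark and less of the mark per cell cannot be told apart.

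The windows of the 92 genes held 360.7 and 291.9 kb of peak at E14 and 227.2 and 188.7 kb at E17. The E17 mean of 207.9 ± 27.2 kb (SD, n = 2) was 36.3% below the E14 mean of 326.3 ± 48.7 kb (SD, n = 2; exact permutation p = 0.333). The covered length near the start sites of all genes was 46.1% lower. Potassium channel genes therefore held a larger share of the covered length near start sites at E17, 2.48% and 2.58%, than at E14, 2.08% and 2.2% (exact permutation p = 0.333).

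**Figure D1:**
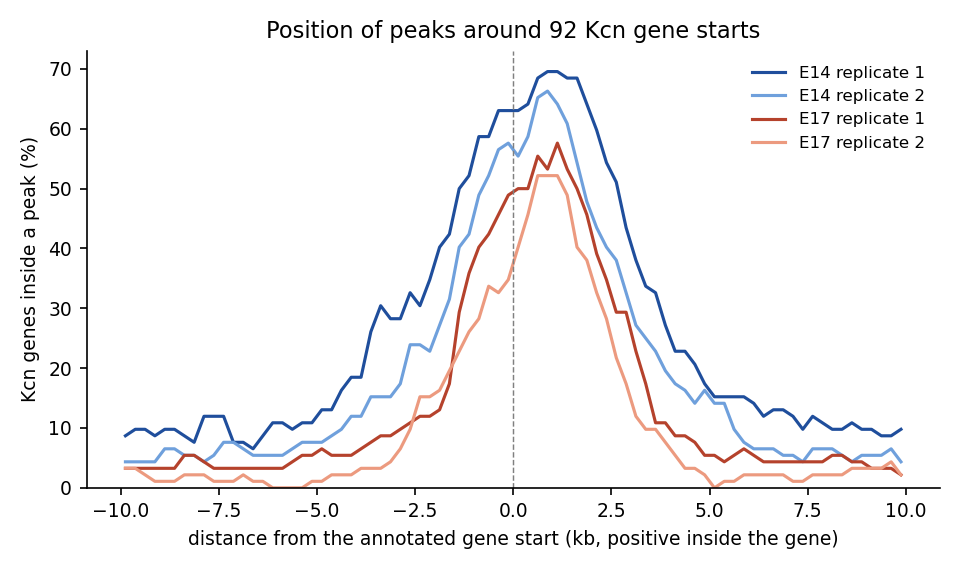
Percent of the 92 gene starts at which the position lies inside a peak (vertical axis) by distance from the annotated gene start in kb, positive inside the gene (horizontal axis), with 1 line for each library in bins of 250 bp. All 4 lines are highest about 1 kb inside the gene, and within 5 kb of the start both E17 lines lie below both E14 lines.

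Peaks were listed most often just inside the genes. The annotated gene start itself lay inside a peak for 58 and 52 of the 92 genes at E14 and for 46 and 34 at E17. In the bin centred 1125 bp inside the gene the share of genes inside a peak was 69.6% and 64.1% at E14 and 57.6% and 52.2% at E17. At 3125 bp inside the gene it was 38.0% and 27.2% at E14 and 22.8% and 12.0% at E17. The plot of peak position shows that the profiles of the stages did not cross within 5 kb of the start.

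Of the 68 genes marked in both E14 libraries (73.9%, against 20.2% of all genes), 62 (91.2%) were marked in both E17 libraries, against 62.3% of all genes marked in both E14 libraries. Only the 4 genes named above (5.88%) were marked in neither E17 library, against 23.4% over all genes. Without E14 replicate 2 this count was 10, and with equal numbers of peaks it was 1. At a −log10 q-value of at least 3 it was 4, but Kcne1 had no peak left and Kcnab2 kept a peak in E14 replicate 1 only. At a −log10 q-value of at least 5 it was 12, with none of the 4 genes named above among them. Kcnab2, Kcne1 and Kcns3 then had no peak left, and Kcna4 kept its peak in E14 replicate 1 only. These shares use the E14 lists to choose the genes and are given as a description. Kcna4, a voltage-gated channel of heart and neurons, had 1278 and 762 bp of peak in the E14 libraries and 0 bp in both E17 libraries. Kcnab2, a beta subunit that binds Kcna channels, had 1936 and 2923 bp at E14 and 0 bp in both E17 libraries. Kcne1, the accessory subunit of the Kcnq1 channel, had 1511 and 269 bp at E14 and 0 bp at E17, with its best peak at percentiles 28.3 and 28.4 of the lists. Kcns3 had 2253 and 1401 bp at E14 and 0 bp at E17. All 4 thus had less peak at E14 than the median of 5631.5 and 4643.5 bp of the 62 genes marked throughout.

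**Figure D2:**
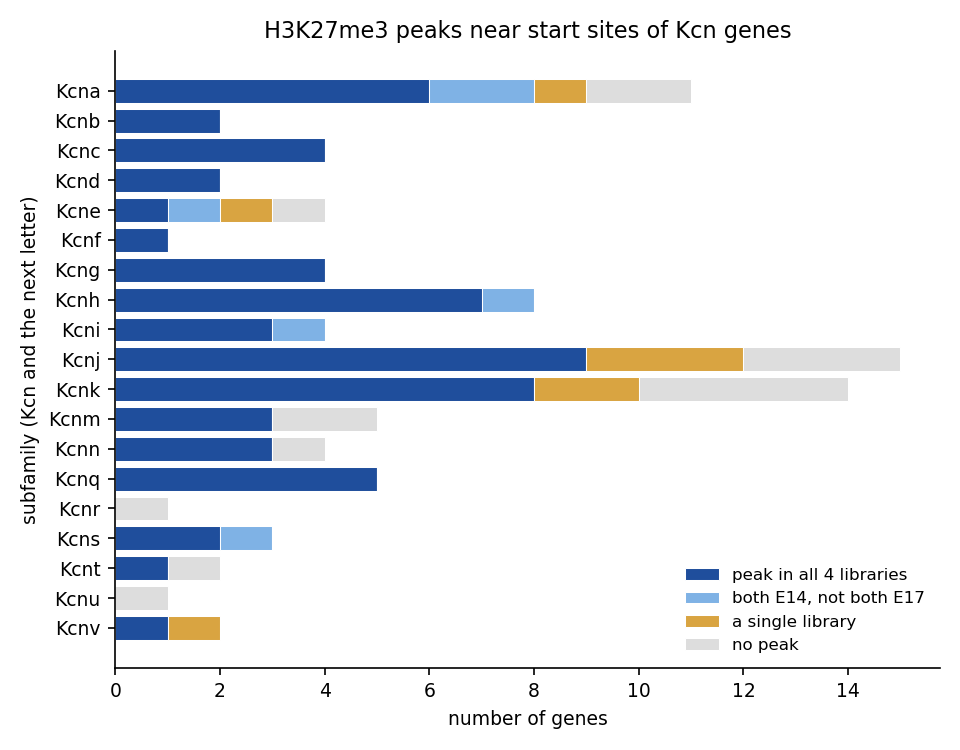
Number of genes (horizontal axis) in each of the 19 subfamilies named by the letter after Kcn (vertical axis), coloured by the libraries in which a peak was listed. Kcnb, Kcnc, Kcnd, Kcnf, Kcng and Kcnq are marked in full in all 4 libraries, whereas Kcnr and Kcnu have no peak.

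The subfamilies differed in how many of their members were marked. All members had a peak in all 4 libraries in 6 of the 19 subfamilies, which together hold 18 genes: Kcnb (2 of 2), Kcnc (4 of 4), Kcnd (2 of 2), Kcnf (1 of 1), Kcng (4 of 4) and Kcnq (5 of 5). Kcnh followed with 7 of 8, Kcni (the Kcnip genes) with 3 of 4, Kcnn with 3 of 4 and Kcns with 2 of 3. Kcnj had 9 of 15, Kcnm 3 of 5, Kcnk 8 of 14 and Kcna 6 of 11, whereas Kcne had 1 of 4, Kcnt 1 of 2 and Kcnv 1 of 2. Kcna holds the 3 beta subunits of Kcnab, none of which was marked throughout, so without them it had 6 of 8. The single members of Kcnr and Kcnu had no peak. Grouped by role, 26 of 29 voltage-gated pore genes (89.7%) and 8 of 10 silent subunits (80.0%) were marked in all 4 libraries. The shares were 5 of 8 (62.5%) for calcium-activated channels and their relatives, 9 of 15 (60.0%) for inward rectifiers, 8 of 14 (57.1%) for two-pore channels and 6 of 16 (37.5%) for accessory genes. These shares were not tested against each other.

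Among the voltage-gated channels, the 4 Kcnc genes, which encode the channels of fast-firing neurons, ranked high, with a median percentile of 97.9, 95.5, 95.5 and 89.7 in E14 replicates 1 and 2 and E17 replicates 1 and 2. Their median covered length was 6326 and 6311.5 bp at E14 and 5525.5 and 5193 bp at E17, with a median change of -15.4%. Kcnc4 was covered over the whole 6001 bp window in both E14 libraries and over 5610 and 5455 bp at E17. Its widest peak was 12433 and 9251 bp at E14 and 6800 and 6591 bp at E17, so its covered length leaves out a difference outside the window. Kcnc1 had 6651 and 6835 bp at E14 and 5441 and 4931 bp at E17. In all 4 Kcnc genes both E17 values lay below both E14 values.

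The Kcna genes, the Shaker-type channels of axons, had a median change of -13.7% over the 6 marked throughout, and in 2 of those 6 both E17 values lay below both E14 values. The window caps these lengths. Kcna7 changed by -2.43% in covered length, with overlapping stages. Its widest peak was 14057 and 15234 bp at E14 and 8106 and 3383 bp at E17. Kcna1 had 6823 and 5640 bp at E14 and 6296 and 6064 bp at E17, so the stages overlapped within its window of 7589 bp. Its widest peak was 12434 and 8190 bp at E14 and 6337 and 6521 bp at E17, without overlap. Kcna6 had 3909 and 2714 bp at E14 and 3557 and 3359 bp at E17, again with overlap. Kcna5 had the largest relative change of the 6, with 5409 and 2733 bp at E14 and 1513 and 619 bp at E17. On chromosome 6, Kcna1 lies between Kcna5, 111.0 kb away, and Kcna6, 94.3 kb away. Kcna3, Kcna2 and Kcna10 lie in a row on chromosome 3, 65.0 and 81.9 kb apart, and Kcna10 alone of these had no peak in any library.

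The Kcnd channels of the transient outward current and the Kcnh channels had larger changes in covered length, which the window caps. The medians were -57.9% over 2 genes and -50.1% over 7 genes. Kcnd3 had 5688 and 4543 bp at E14 and 2159 and 2337 bp at E17. Kcnh2, the channel of late repolarisation in the heart, had 8000 and 6277 bp at E14 and 3068 and 2962 bp at E17, a change of -57.8%. Its best peak stood at percentiles 89.4 and 78.3 at E14 and 75.1 and 26.5 at E17. Kcnh3, a channel of forebrain neurons, kept the longest mark of the voltage-gated group, with 9550 and 8286 bp at E14 and 7974 and 6043 bp at E17. Of the 8 Kcnh genes, 7 had both E17 values below both E14 values among those marked throughout, and Kcnh6 had 2759 and 2327 bp at E14 and 216 and 0 bp at E17.

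All 5 Kcnq genes were marked throughout, with a median change of -34.7%. Kcnq1, which forms the slow delayed rectifier of the heart with Kcne1, had 6156 and 5739 bp at E14 and 4031 and 3736 bp at E17. Kcnq5 was the exception, with a short mark of 792 and 922 bp at E14 and 1317 and 894 bp at E17.

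Among the silent subunits, the Kcng genes were all marked throughout and had a median change of -62.9%, with both E17 values below both E14 values in each of the 4. Kcng1 had 5320 and 5224 bp at E14 and 1837 and 355 bp at E17, a change of -79.2%. Kcng3 had 6001 and 5394 bp at E14 and 3695 and 3019 bp at E17, and its best peak stood at percentiles 96.2, 95.9, 97.4 and 91.0 of the 4 lists. Kcng2 had 6919 and 4795 bp at E14 and 3590 and 1727 bp at E17. Kcnv1 had the largest relative change of the 62 genes, -82.9%, from 4202 and 3421 bp at E14 to 841 and 466 bp at E17. Kcnf1 differed from these, with 1291 and 1481 bp at E14 and 1499 and 1440 bp at E17. Kcns1 had 4813 and 4453 bp at E14 and 3982 and 3416 bp at E17.

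Of the inward rectifiers, all 9 genes marked in all 4 libraries had both E17 values below both E14 values, with a median change of -33.5%. Kcnj9, a subunit of the G protein-activated channels, had 7211 and 7109 bp at E14 and 6993 and 6097 bp at E17. It lies 11.9 kb from Kcnj10, the glial inward rectifier, and 1 peak spanned the starts of both genes in 3 of the 4 libraries. That peak was 19702 and 19107 bp wide at E14, the widest at any potassium channel gene in those libraries. Kcnj5, a G protein-activated channel of heart and adrenal gland, had 5965 and 4891 bp at E14 and 4473 and 4281 bp at E17, at percentiles from 92.8 to 98.2. Kcnj8, the pore of the vascular ATP-sensitive channel, had 4249 and 4030 bp at E14 and 2984 and 2522 bp at E17. Kcnj11, the pore of the ATP-sensitive channel of pancreatic beta cells, had 1841 bp in E14 replicate 1 and 0 bp in the other 3 libraries. Kcnj2, the classical inward rectifier of heart and skeletal muscle, had a short mark of 1283 and 1429 bp at E14 and 576 and 629 bp at E17. Kcnj13, Kcnj14 and Kcnj16 had no peak in any library.

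The two-pore channels, which carry leak currents, had a median change of -16.4% over 8 genes, and both E17 values lay below both E14 values in 5 of them. The window caps these lengths too. Kcnk12 changed by -5.13% in covered length, whereas its widest peak was 16286 and 8530 bp at E14 and 6220 and 6180 bp at E17. Kcnk4, a mechanosensitive channel of neurons, had the largest covered length of all, with 12394 and 11547 bp at E14 and 9141 and 8164 bp at E17. Its windows held 13479 bp in all. In E14 replicate 1 its widest peak was 13158 bp, narrower than the 19702 bp at Kcnj9. The peaks of Kcnk4 also covered the start of Catsperz in all 4 libraries. Kcnk15 had 6083 and 5933 bp at E14 and 6083 and 6083 bp at E17, which is its whole window, so a difference outside the window is not seen in this value. Kcnk1 had 3645 and 3287 bp at E14 and 3748 and 3267 bp at E17. Kcnk2, a mechanosensitive channel related to Kcnk4, had 591 bp in E14 replicate 1 and 0 bp in the other 3 libraries. Kcnk6, Kcnk7, Kcnk16 and Kcnk18 had no peak.

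Calcium-activated channels were divided. Kcnma1 had 6930 and 4899 bp at E14 and 5496 and 4349 bp at E17, with its best peak at percentiles 94.3 and 97.8 at E14 and 96.9 and 96.6 at E17. Kcnn1, a small-conductance channel of neurons, had 3827 and 3719 bp at E14 and 3560 and 3163 bp at E17. Kcnt1, a sodium-activated channel, had 9224 and 7122 bp at E14 and 5007 and 6202 bp at E17. By contrast Kcnn4, Kcnt2 and Kcnu1, the last a channel of sperm, had 0 bp in every library.

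The accessory genes had the lowest share marked in all 4 libraries, and those 6 genes had a median change of -47.4%. The accessory genes with no peak in 1 or both E17 libraries, such as Kcnab2, Kcne1 and Kcnip2, are not in this median. Kcnip3, a calcium sensor that binds Kcnd channels, had 9104 and 4968 bp at E14 and 2513 and 1949 bp at E17, the largest difference in bp of the 62 genes. Kcnip4, of the same family, had 6535 and 4390 bp at E14 and 1480 and 1407 bp at E17, a change of -73.6%. Kcne3, an accessory subunit of epithelial channels, had 6218 and 5552 bp at E14 and 4368 and 3026 bp at E17. Kcnab1, Kcne4, Kcnmb1, Kcnmb3 and Kcnrg had no peak in any library.

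**Figure D3:**
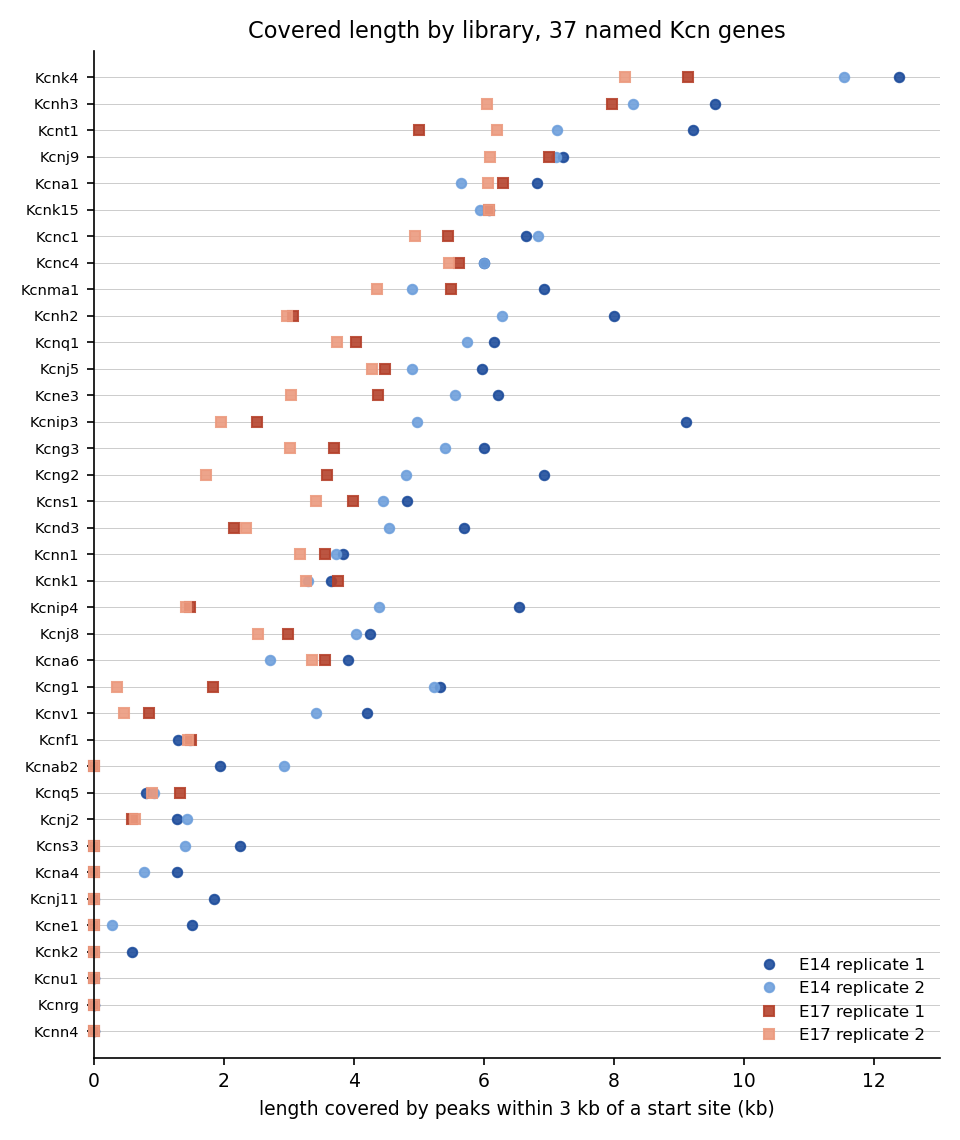
Length covered by peaks within 3 kb of a start site in kb (horizontal axis) for 37 genes named by rule (vertical axis), with circles for the 2 E14 libraries and squares for the 2 E17 libraries. Kcnk4 has the largest covered length in every library, and squares lie left of both circles for genes such as Kcnh2, Kcng1 and Kcnip4.

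Over the 62 genes marked throughout, the covered length ranged from 792 to 12394 bp in E14 replicate 1 and from 355 to 8164 bp in E17 replicate 2. The medians were 5631.5, 4643.5, 3575 and 3022.5 bp in E14 replicates 1 and 2 and E17 replicates 1 and 2, against 5088, 4205, 3005 and 2323 bp for the 2613 genes of the whole annotation marked throughout. Both E17 values lay below both E14 values in 49 of the 62 genes (79.0%), against 77.6% of those 2613 genes. The median change was -32.4%, against -37.3%. The whole window was covered in 10 and 3 of the 62 genes in E14 replicates 1 and 2, and in 1 and 1 in E17 replicates 1 and 2. For those genes, and for others whose peak ran past the window, such as Kcna1, a difference outside the window is not seen. The share of shorter marks among potassium channel genes is thus close to that of marked genes in general. In the other 13 genes the stages overlapped, and in none did both E17 values lie above both E14 values. The mean was higher at E17 in 5 genes, Kcnq5, Kcnf1, Kcna6, Kcnk15 and Kcnk1, by 29.0%, 6.02%, 4.42%, 1.25% and 1.2%, each within overlapping libraries and each with the opposite sign under at least 1 alternative.

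**Figure D4:**
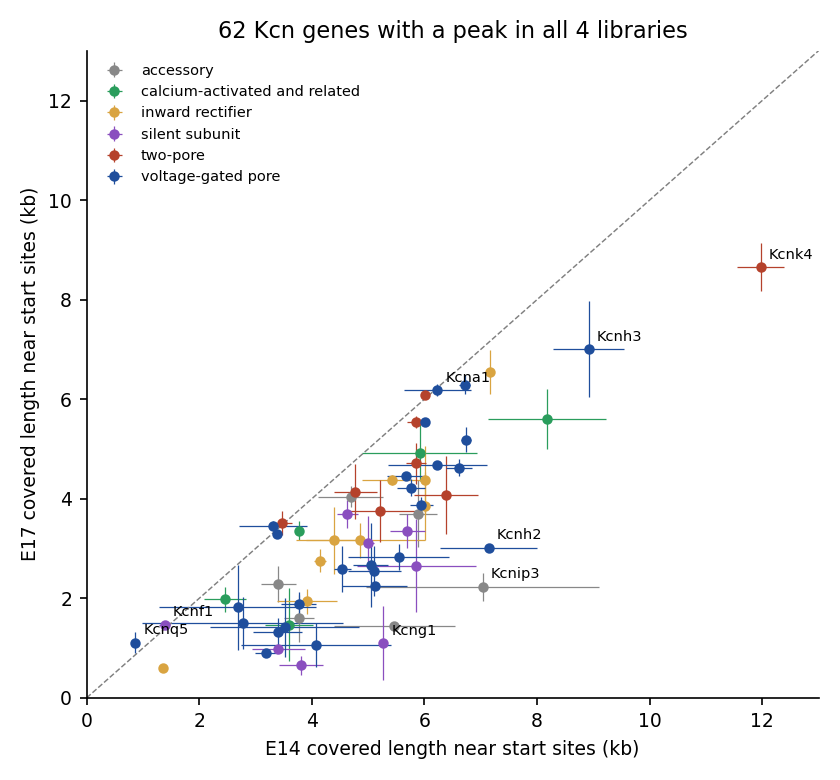
Mean covered length at E14 (horizontal axis, kb) and at E17 (vertical axis, kb) for the 62 genes with a peak in all 4 libraries, coloured by role, with bars reaching to the values of the 2 libraries of a stage and a dashed line where both stages are equal. Nearly all genes lie below the line, and Kcng1, Kcnip3 and Kcnh2 are among the farthest from it.

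The fold enrichment of the peaks ranked high within each list, about as high as at marked genes in general. The median percentile of the 62 genes was 92.7, 91.1, 87.8 and 74.5 in E14 replicates 1 and 2 and E17 replicates 1 and 2, against 93.3, 90.8, 84.3 and 74.9 for the 2613 genes. At or above the 90th percentile stood 45, 34, 22 and 13 potassium channel genes, and the same count over all genes was not made. The genes with the highest mean percentile included Kcnk4, Kcnma1, Kcnh3, Kcnc4 and Kcnn1. Since the lists differ in length, a percentile compares peaks within a list and not between stages.

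Genes with several separate start-site windows were marked at some and not at others. Of the 62 genes marked throughout, 26 had at least 2 separate windows, 67 in all, of which 28 had a peak in all 4 libraries and 31 had none. Kcnk3 alone had every window marked in all 4 libraries, and 20 genes had at least 1 window without any peak. Kcnma1 had 7 windows, of which 1 was marked in all 4 libraries and 6 had no peak. Kcnip4 had 6 windows, of which 1 was marked throughout and 3 had no peak, and Kcnn2 had 1 of 4 marked and 3 without a peak.

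The marked windows of those 20 genes were richer in CpG, the dinucleotide shown in capitals in the sequences above. Their median was 2.61 CpG per 100 bp, against 1.06 in the windows of the same genes without a peak. The mean was higher in the marked windows in 20 of 20 genes, and in 19 of them the marked windows exceeded every unmarked one. In Kcnc1 the values were 4.10 and 1.43 CpG per 100 bp, in Kcnma1 3.25 and 0.640, and in Kcnh8 2.10 and 0.567. The exception was Kcnt1, where the lower of its 2 marked windows had 1.41 and the higher of its 2 unmarked windows 1.47 CpG per 100 bp. These are descriptions of the reference sequence and were not tested.

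Along the windows, the bases covered throughout were also the richest in CpG. Bases covered in all 4 libraries had 3.58 CpG per 100 bp, those covered in both E14 libraries and 1 E17 library 2.53, those covered in both E14 libraries and neither E17 library 2.19, and those never covered 1.29. Over all autosomal protein-coding genes these values were 3.51, 2.27, 2.07 and 1.43 CpG per 100 bp. Near potassium channel genes, bases covered in 1 E14 library and neither E17 library had 2.17, and those with any other pattern 2.19. Both were close to the 2.19 of bases covered in both E14 libraries only. Over all genes these classes had 1.67 and 2.52, the latter above the 2.27. Within single genes with at least 200 bp of both kinds, the bases covered throughout were richer than the uncovered ones in 46 of 49 genes. They were richer than the bases covered at E14 only in 33 of 41 genes. In the other 8 of these genes the bases covered at E14 only were the richer ones, as in Kcnk10, with 10.4 CpG per 100 bp against 1.59 in its bases covered throughout. The bases covered at E14 only were richer than the uncovered ones in 26 of 41 genes. This comparison within genes was made for potassium channel genes only.

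**Figure D5:**
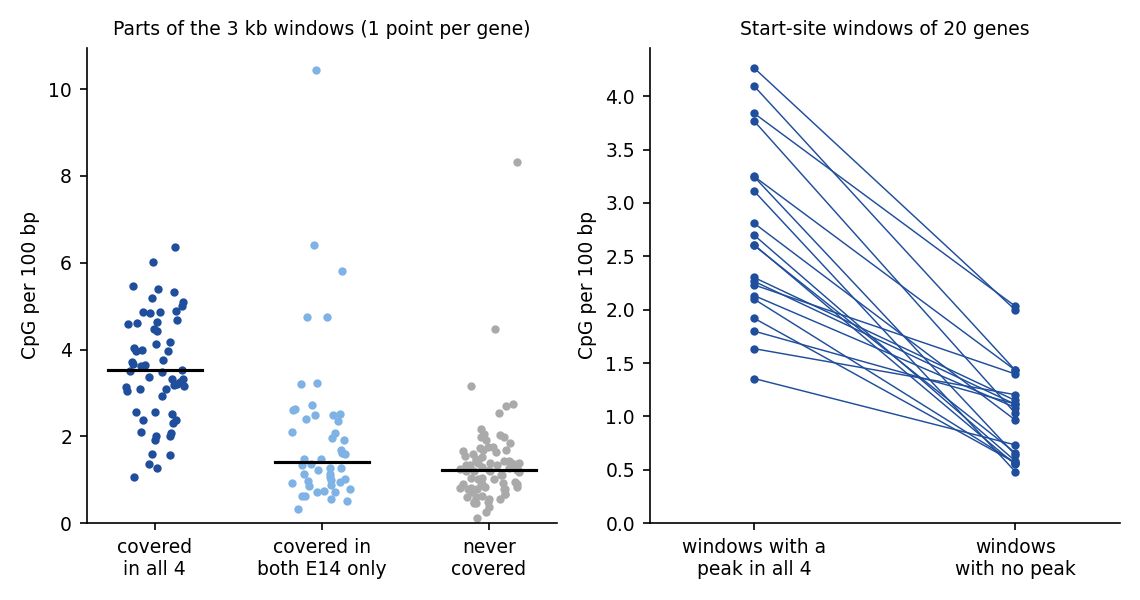
CpG per 100 bp (vertical axes) in the parts of the start-site windows by coverage, 1 point per gene with at least 200 bp of that kind and a bar at the median (left), and in marked and unmarked windows of the same gene joined by a line for 20 genes (right). Every line on the right goes down from the marked to the unmarked windows.

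The genes without a peak were CpG-poor at their starts. In the 1001 bp centred on the gene start the median was 5.14 CpG per 100 bp for the 62 genes marked throughout, close to 5.39 for all genes marked throughout. For the 16 genes without a peak it was 1.35, below the 3.85 of all genes without a peak. Of those 16 genes, 15 lay below 3.85. The exception was Kcnk6, a two-pore channel, with 7.49 CpG per 100 bp and 0 bp of peak in every library. Kcnn4 had 2.60 and Kcnmb1 1.3. Above 3.85 lay 40 of the 62 genes marked throughout, and above 1.35 lay 60 of them, so the values of marked and unmarked genes overlapped. Marked genes with a CpG-poor annotated start included Kcne3 with 0.400 and Kcnma1 with 0.500, and the marked start of Kcnma1 lay downstream of the annotated one.

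Genes that work with potassium channels under other symbols, and other ion channels, were set beside them. Of 13 such partners, 11 were marked in both E14 libraries and 7 in all 4. The pacemaker channels Hcn2 and Hcn4 were marked in all 4, and Hcn3 had 4248 and 4097 bp at E14 and 709 and 0 bp at E17. Abcc8, the sulfonylurea receptor that pairs with Kcnj11, had 4330 and 3207 bp at E14 and 2677 and 257 bp at E17. Abcc9, the vascular receptor that pairs with Kcnj8, had 888 and 422 bp at E14 and 0 bp at E17. The Kcnma1 partner Lrrc26 stood at percentiles 99.0, 97.8, 98.7 and 95.2 of the 4 lists. A peak in all 4 libraries was listed for 15 of 25 calcium channel genes (60.0%), 6 of 14 sodium channel genes (42.9%) and 0 of 8 chloride channel genes of the Clcn family. These lists were not tested against the 67.4% of potassium channel genes.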

How the data were processed

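The data were 4 H3K27me3 ChIP-seq peak lists of WT dermal fibroblasts, 2 each from E14 and E17. According to the submitters' processing notes, the authors used Bowtie2 2.3.5.1, SAMtools 1.9, MACS2 2.2.7.1 and deepTools 3.5.1 with mm10. Broad peaks were called per library at a q-value of 0.01, replicates were not pooled, and the control is not given in the sources used here. The methods state that E18.5 samples were subsampled, and whether this covers the E17 libraries is unclear. The labels and the paper also differ on culture medium, chromatin shearing and library kit. In the deposited lists each peak carries a score (not used), its fold enrichment as a ratio, and p and q values as −log10. The lists hold no counts, so the precision of a single peak is not known from them.

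Peaks were scored over the GENCODE vM21 annotation of GRCm38 with windows of 3000 bp either side of every start site and an overlap of at least 1 bp. Values of the libraries were tested by exact permutation of the stage labels (two-sided). CpG was counted in the GRCm38.p6 genome, and the printed sequences were read from it. Scripts used Python 3.11.15, numpy 2.4.6, pandas 2.3.3, scipy 1.17.1, matplotlib 3.10.9 and pysam 0.24.0, and the scoring was tested on simulated peaks. The members and lists were chosen with earlier results of these data known. The genes named are those marked in both libraries of a single stage, the 8 with the largest mean covered length and the 8 highest-ranked. The 6 largest and 6 smallest falls of covered length and the largest mean covered length of each subfamily were added. So were 8 genes with known roles (Kcnj8, Kcnj11, Kcnma1, Kcnn4, Kcnk2, Kcnq1, Kcnj2 and Kcnh2). Values of 3 of these genes are not reported here. Others were named for their pattern of peaks, position or partner genes after their values were seen. Alternatives were stricter q-values, wider peaks, other windows, a larger overlap, the annotated start alone, equal numbers of peaks, leaving out each library, and the replicate number as a block.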

Additional observations from a re-analysis of the deposited data

How the results depend on the processing

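The difference in the number of marked potassium channel genes and in their covered length kept its direction under every alternative run. With the 7107 peaks of lowest q in each list the difference in number was -0.5 genes (exact permutation p = 1), the difference in length was -95.0 kb, and 1 gene in place of 4 was marked in both E14 libraries and neither E17 library. At a −log10 q of at least 5, 20 genes in place of 62 were marked in all 4 libraries and 12 in both E14 libraries and neither E17 library. Those 12 held none of the 4 genes with that pattern in the full lists. The alternatives were run on potassium channel genes only, so no share of all genes stands beside these counts. Leaving out 1 library at a time, the difference in number ranged from -5.5 to -10.5 genes, the difference in length from -83.9 to -153 kb (exact permutation p up to 0.667), the genes marked in every remaining library from 62 to 64, and those marked at E14 only from 4 to 10, with 10 without E14 replicate 2. With the replicate number as a block the differences were -8 genes and -118 kb (exact permutation p = 0.5, the smallest possible). Taken as single pairs, replicates 1 gave 10 genes and replicates 2 gave 7 genes marked at E14 only. The deviations of equally numbered libraries correlated at 0.0784 over 62 genes, so the numbers were not taken to pair the libraries. With Kcnab apart, 75% in place of 54.5% of Kcna genes were marked throughout. Without 6 genes whose peaks cover the start of another gene, an alternative chosen after seeing the data, 56 genes were marked throughout and the length differed by -110 kb. The sign of the difference in covered length changed for 5 of 40 named genes, Kcnk1, Kcnq5, Kcnf1, Kcnk15 and Kcna6. The causes of these changes were not tested. The lists give no depth, so a missing peak can lie just under a threshold.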
